A study of Mus musculus with 4 samples.

Results

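The 10 genes described here encode the brakes of the mammalian cell cycle: the INK4 inhibitors Cdkn2a, Cdkn2b, Cdkn2c and Cdkn2d, the Cip/Kip inhibitors Cdkn1a and Cdkn1b, the pocket proteins Rb1, Rbl1 and Rbl2, and Trp53. They were chosen by name and taken by their Ensembl identifiers from 28883 genes that have a methylation level in at least 1 library. A gene can have 1 level for its promoter, 5′ UTR, exons, introns and 3′ UTR, and CpG islands and the shores beside them were added where they overlap the gene. This gave 60 entries (39 of gene regions, 10 islands and 11 shores) of 111153, and 59 of them had a level in all 4 libraries. All 10 genes were listed.

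INK4 proteins bind CDK4 and CDK6 and keep them from D-type cyclins, whereas Cip/Kip proteins bind cyclin-CDK complexes more broadly. Both keep the pocket proteins in the unphosphorylated form that holds E2F factors and the genes these drive, and p53, encoded by Trp53, turns on Cdkn1a. Promoter CpG islands of INK4 genes are a textbook site of aberrant methylation in tumors and in cultured cells, and the exit from the cell cycle that these genes govern accompanies osteoblast differentiation.

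Reduced representation bisulfite sequencing (RRBS) was performed on C3H10T1/2 cells, a mouse mesenchymal stem cell (MSC) line derived from C3H embryos. It tells CpG sites that bisulfite leaves unconverted because they are methylated from the unmethylated sites that it converts. Cells received control siRNA or siRNA against DNMT1, the maintenance DNA methyltransferase, for 48 h, and were then either left uninduced (control and siDNMT1) or given osteoblast (OB) medium with ascorbic acid, β-glycerophosphate and dexamethasone for 3 days (OB and siDNMT1_OB). All cells thus carried an siRNA, no untransfected culture was sequenced, and each condition was 1 library of 1 cell line. Uninduced libraries are listed at day 0 of induction and induced ones at day 3, with no uninduced library at day 3. Induction therefore cannot be told apart from time in culture or time since transfection. The values are fractions from 0 to 1 without read counts, so the depth behind a level is unknown, no interval could be given for a level, and no test was made. Differences below are therefore between single libraries and have no replicate check. The knockdown of DNMT1 and the identity of the cells cannot be read from methylation levels, and expression was not analysed here. The libraries held 155398 to 159705 listed regions, fewest in siDNMT1_OB. The siDNMT1 comparisons and the OB comparisons reuse the same 4 libraries, so they are not independent of each other.

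Most entries of these genes were nearly unmethylated whichever siRNA or medium the cells received. Of the 59 entries, 37 (62.7%) were under 0.05 in all 4 libraries, against 28.8% of all 106689 entries. All 10 islands were under 0.05 in every library, between 0.0103 and 0.0352, where 54% of 14095 islands and 69.9% of the 8216 islands that hold the start of a protein-coding gene did so. For promoters, 7 of 9 were under 0.05 throughout (32.2% of all 20152 promoters), and for 5′ UTRs 7 of 9 (56.2%). Exons and introns reached higher levels, with 4 of 9 and 3 of 9 under 0.05 (22.5% and 11.7% of all). Both 3′ UTRs listed, of Cdkn2a and Cdkn2d, were above 0.7. Some entries repeat each other because they cover the same CpG sites: 8 entries share 3 sets of values, which leaves 54 distinct sets.

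**Figure D1:**
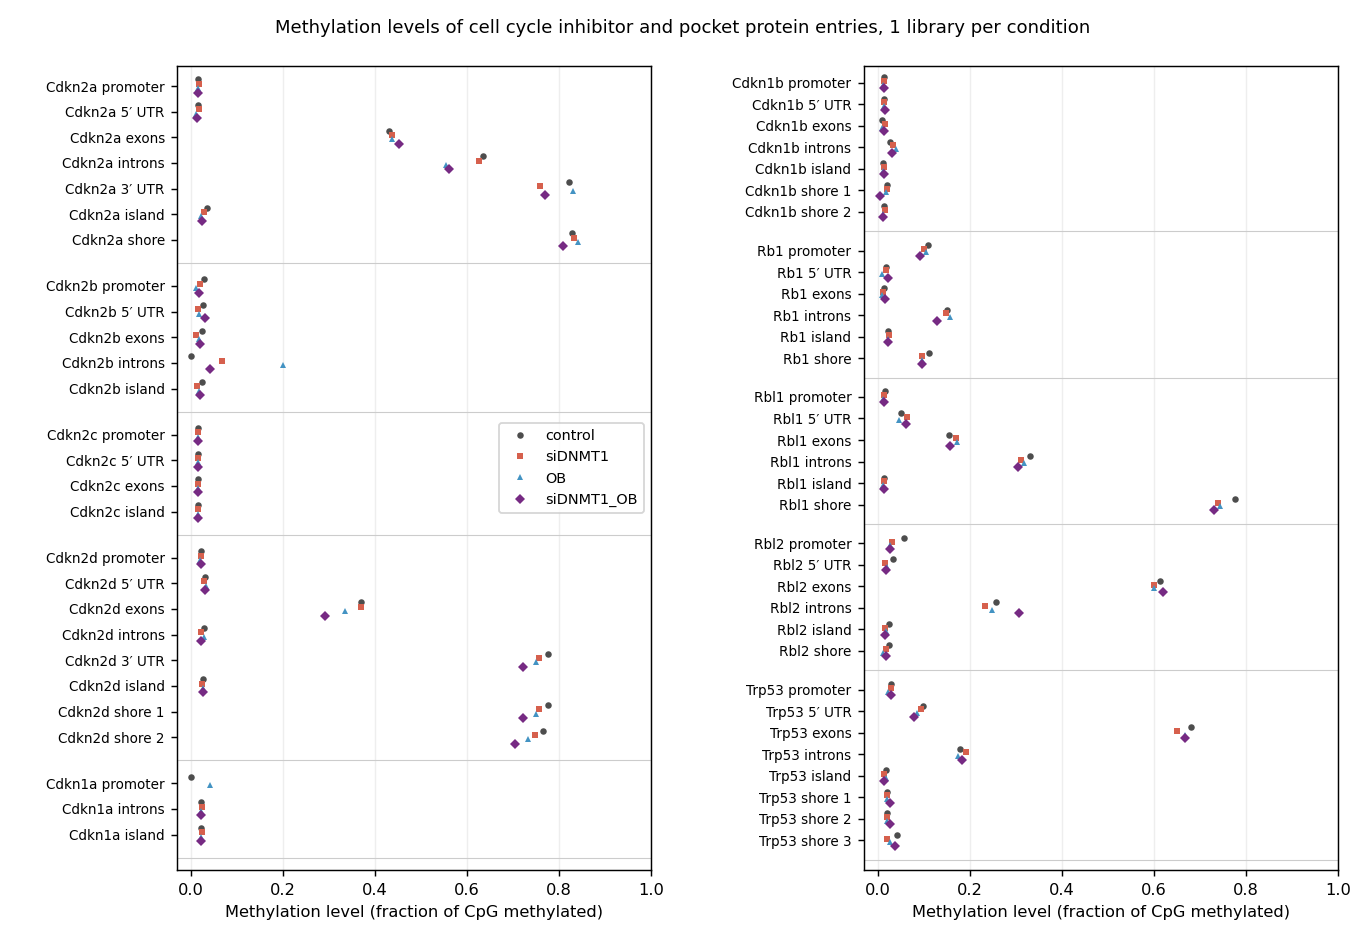
Methylation level (fraction of CpG methylated, horizontal axis) of each entry of the 10 genes, with 1 point for each of the 4 libraries and no error bars since each condition is 1 library. Islands, 5′ UTRs and most promoters sit at the left edge, while the 3′ UTRs, the shores inside Cdkn2a, Cdkn2d and Rbl1, the introns of Cdkn2a, and the exons of Rbl2 and Trp53 sit above 0.5.

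Cdkn2a is read from a pair of starts. The outer start gives p19Arf, which shields p53 from MDM2, and the inner start gives p16Ink4a, which inhibits CDK4 and CDK6. The reference bases before each are shown because the starts differ in how many CpG sites a bisulfite assay could read. The outer start holds 35 CpG sites in 216 bases and lies in an island, and the inner start holds 7 in 250 bases and lies in no listed island. In the sequences of Cdkn2a and Cdkn2b, capitals mark CpG sites. The bases come from RefSeq on GRCm38.p6, which is a C57BL/6J genome rather than C3H, are written 5′ to 3′ on the gene's strand, and stop before the transcript.
Cdkn2a, p19Arf start, chr4:89294654-89294869, minus strand: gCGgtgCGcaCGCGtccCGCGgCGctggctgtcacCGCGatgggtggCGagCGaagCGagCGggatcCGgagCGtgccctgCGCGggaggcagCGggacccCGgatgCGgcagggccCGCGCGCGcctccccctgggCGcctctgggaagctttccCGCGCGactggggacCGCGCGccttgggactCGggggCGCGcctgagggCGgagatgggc
Cdkn2a, p16Ink4a start, chr4:89282193-89282442, minus strand: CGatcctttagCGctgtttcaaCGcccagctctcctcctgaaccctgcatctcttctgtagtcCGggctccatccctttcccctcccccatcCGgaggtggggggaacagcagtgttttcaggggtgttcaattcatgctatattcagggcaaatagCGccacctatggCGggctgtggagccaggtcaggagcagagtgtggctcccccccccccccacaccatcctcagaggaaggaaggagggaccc
Cdkn2b, chr4:89311040-89311282, minus strand: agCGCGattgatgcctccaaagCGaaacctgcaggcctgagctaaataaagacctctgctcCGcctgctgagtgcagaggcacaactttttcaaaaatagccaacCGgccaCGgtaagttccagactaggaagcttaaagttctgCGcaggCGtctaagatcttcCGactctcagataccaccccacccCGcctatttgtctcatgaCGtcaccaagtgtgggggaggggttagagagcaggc

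The gene Cdkn2a (ENSMUSG00000044303, chr4:89274471-89294653, minus strand) ran from unmethylated at its outer start to heavily methylated at its end. Its promoter level was 0.0156 in control, 0.0179 in siDNMT1, 0.0142 in OB and 0.0144 in siDNMT1_OB. The island across the p19Arf start (chr4:89294133-89295553) was at 0.0352, 0.0278, 0.0207 and 0.023 in the same order, and the 5′ UTR lay between 0.0113 and 0.0162. The 2 kb before the p19Arf start hold 135 CpG sites and the 2 kb before the p16Ink4a start 32, and only a single promoter level was given for the gene, so a level for the p16Ink4a start by itself cannot be read from it. That inner stretch lies within the first intron of the p19Arf transcript, and the intron level of the gene was 0.635 in control, 0.627 in siDNMT1, 0.553 in OB and 0.561 in siDNMT1_OB. Intron levels were thus lower in both induced libraries than in both uninduced ones, by -0.0817 with control siRNA and -0.0656 with DNMT1 siRNA. Differences of at least 0.05 downward in both OB comparisons were seen for this entry alone among the 59 (1.69%). They were seen for 4005 (3.75%) of all 106689 entries and for 637 (3.22%) of all 19757 introns.

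The 3′ UTR of Cdkn2a differed more between siRNAs than between uninduced and induced cells. It stood at 0.821 in control and 0.83 in OB, against 0.758 in siDNMT1 and 0.769 in siDNMT1_OB, so that both DNMT1 siRNA libraries were below both control siRNA libraries. The differences were -0.0626 uninduced and -0.0611 in OB cells, under the 0.1 used here to count a change. It was the single entry of the 10 genes at least 0.05 lower in both siDNMT1 comparisons, as were 85 (1.95%) of all 4354 3′ UTRs and 966 (0.905%) of all entries. A shore about the last exons (chr4:89274672-89276671) did not share this order, with 0.829, 0.832, 0.841 and 0.808 in control, siDNMT1, OB and siDNMT1_OB. Exons of Cdkn2a, which mix the outer and the downstream exons, were at 0.429, 0.437, 0.437 and 0.453.

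Cdkn2b (ENSMUSG00000073802, chr4:89306299-89311039, minus strand) encodes p15Ink4b, a CDK4 and CDK6 inhibitor known for its induction by TGF-β, and it neighbours Cdkn2a. Its promoter level was 0.0271 in control, 0.0189 in siDNMT1, 0.0102 in OB and 0.0165 in siDNMT1_OB. The island at its start (chr4:89310608-89311040) was at 0.0229, 0.0126, 0.0179 and 0.0186, the exons were between 0.0113 and 0.0235 and the 5′ UTR was between 0.0137 and 0.0289. In these 4 entries the control library was above siDNMT1, and OB was below siDNMT1_OB, all within 0.02. The island overlaps the exons and 5′ UTR, so the entries are not separate observations. The shore before the start (chr4:89311041-89313041) was likewise low, from 0.0109 to 0.0286.

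The intron of Cdkn2b was the 1 entry of the 59 that passed 0.1. Its level was 0 in control, 0.0667 in siDNMT1, 0.2 in OB and 0.0417 in siDNMT1_OB. OB stood above the other libraries, and the siDNMT1 difference was 0.0667 in uninduced cells and -0.158 in OB cells, while the OB difference was 0.2 with control siRNA and -0.025 with DNMT1 siRNA. The intron holds 50 CpG sites in 3351 bp (1.49 per 100 bp), and how many of them were read is not known, while the island beside it holds 48 in 433 bp (11.1 per 100 bp). The swings of the intron level cannot be set against a counting error. Across its 4 gene entries, the genes with the most similar levels were Alkbh3, Pex2 and Zmym1, with root mean square differences of 0.0256, 0.0264 and 0.0312 over 16 values, among 9798 genes that had the same entries. Since the promoter, 5′ UTR and exons of Cdkn2b were all low, the uncertain intron levels weigh in this likeness. Whether these genes share more than that was not tested.

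Cdkn2c (ENSMUSG00000028551, chr4:109660876-109667189, minus strand), which encodes p18Ink4c, gave the steadiest values. Its promoter, 5′ UTR, exon and island (chr4:109665678-109667173) all had the same level, 0.0146 in control, 0.0154 in siDNMT1, 0.0145 in OB and 0.0146 in siDNMT1_OB. The 4 entries therefore count as 1 measurement, and its range over the libraries was 0.000851. The island, with 142 CpG sites, lies inside the gene and holds neither GENCODE start, but a RefSeq start at chr4:109666756 lies in it. The 2 kb before the inner GENCODE start cover the island and hold 153 CpG sites. The 2 kb before the outer GENCODE start hold 14 CpG sites and no CCGG.

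Cdkn2d (ENSMUSG00000096472, chr9:21288410-21291407, minus strand), the gene of p19Ink4d, combined an unmethylated start with a methylated 3′ end within a few kilobases. The promoter was at 0.0204 in control, 0.0204 in siDNMT1, 0.0197 in OB and 0.0212 in siDNMT1_OB, and the island (chr9:21290818-21291645) was at 0.0253, 0.0244, 0.026 and 0.0254. The 3′ UTR, whose values are those of the shore at chr9:21288322-21290322, was at 0.776 in control, 0.756 in siDNMT1, 0.749 in OB and 0.721 in siDNMT1_OB. The overlapping shore nearer the island (chr9:21288817-21290816) was at 0.764, 0.748, 0.733 and 0.704. In both, DNMT1 siRNA libraries were below their controls and induced libraries below uninduced ones, so that siDNMT1_OB was lowest. Exons showed the largest spread of the gene, from 0.37 in control and 0.368 in siDNMT1 to 0.335 in OB and 0.291 in siDNMT1_OB. Over the 7 distinct sets of values of Cdkn2d, 7 were lower in siDNMT1 than in control and 6 lower in siDNMT1_OB than in OB, most of them by less than 0.03. Of all entries, 54.6% and 65.7% were lower in these comparisons. The shores overlap each other, the exons include the 3′ UTR and the island spans the starts, so these sets are not separate observations.

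The Cip/Kip genes Cdkn1a and Cdkn1b were low wherever they were measured. Cdkn1a (ENSMUSG00000023067, chr17:29090976-29100727, plus strand) encodes p21, the p53-induced inhibitor of CDK2, and has a distal and a proximal cluster of starts. Their sequences are shown because the starts lie in stretches of very different CpG content, and which of them the listed promoter level covers is not given: the distal window holds 2 CpG sites and the proximal window 19. Capitals mark CpG sites, and the build and source are as above.
Cdkn1a, distal start, chr17:29090729-29090975, plus strand: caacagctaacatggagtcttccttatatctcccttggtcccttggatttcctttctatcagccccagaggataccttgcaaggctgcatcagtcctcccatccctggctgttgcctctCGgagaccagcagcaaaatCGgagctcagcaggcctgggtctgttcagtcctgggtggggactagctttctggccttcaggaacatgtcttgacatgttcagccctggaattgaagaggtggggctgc
Cdkn1a, proximal start, chr17:29093519-29093768, plus strand: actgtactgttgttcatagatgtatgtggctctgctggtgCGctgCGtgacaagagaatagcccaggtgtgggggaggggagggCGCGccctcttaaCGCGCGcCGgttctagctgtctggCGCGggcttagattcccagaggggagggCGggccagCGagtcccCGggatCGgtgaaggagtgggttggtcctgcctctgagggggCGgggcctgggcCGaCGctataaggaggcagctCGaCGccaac

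The promoter of Cdkn1a was the 1 entry of the 60 without a level in all libraries. It was listed at 0 in control and at 0.04 in OB, and in neither DNMT1 siRNA library. The 2 kb before the distal start hold 17 CpG sites and no CCGG, and the 2 kb before the proximal start 50 CpG sites and 3 CCGG. The island (chr17:29093603-29095714), which holds the proximal starts, was at 0.0211 in control, 0.0231 in siDNMT1, 0.0221 in OB and 0.0219 in siDNMT1_OB. The intron level of Cdkn1a was nearly the same number, 0.0211, 0.0231, 0.0221 and 0.0219, and the island overlaps these introns. A TEC transcript, AC167363.2, lies on the other strand there, and a methylation level does not tell such neighbours apart. No siDNMT1 or OB difference of Cdkn1a in its 2 entries with 4 levels was larger than 0.00206.

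Cdkn1b (ENSMUSG00000003031, chr6:134920401-134925513, plus strand), the gene of p27, an inhibitor that is mostly controlled through its degradation, was low in every entry listed. Its 3′ UTR had no level. Its promoter was at 0.0126 in control, 0.0142 in siDNMT1, 0.0103 in OB and 0.0125 in siDNMT1_OB, and its island (chr6:134919926-134921264) at 0.0112, 0.0139, 0.0103 and 0.0135. The 5′ UTR, exons and introns stayed between 0.00983 and 0.0384. Both shores that overlap the gene were also low: the near one (chr6:134921265-134923265) was at 0.0201, 0.0197, 0.0173 and 0.00348, and the far one (chr6:134924880-134926879) between 0.011 and 0.0148. Promoter, 5′ UTR, exon and island were higher in both DNMT1 siRNA libraries than in their controls, by at most 0.00444. The island spans the start and overlaps the other regions, so these are not separate observations. Of all entries, 17.8% were higher in both siDNMT1 comparisons. The shore upstream of the gene (chr6:134917925-134919924) was less even, with 0.0395 in control, 0.103 in siDNMT1, 0.0667 in OB and 0.04 in siDNMT1_OB, and is not among the 60 entries since it does not overlap the gene.

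**Figure D2:**
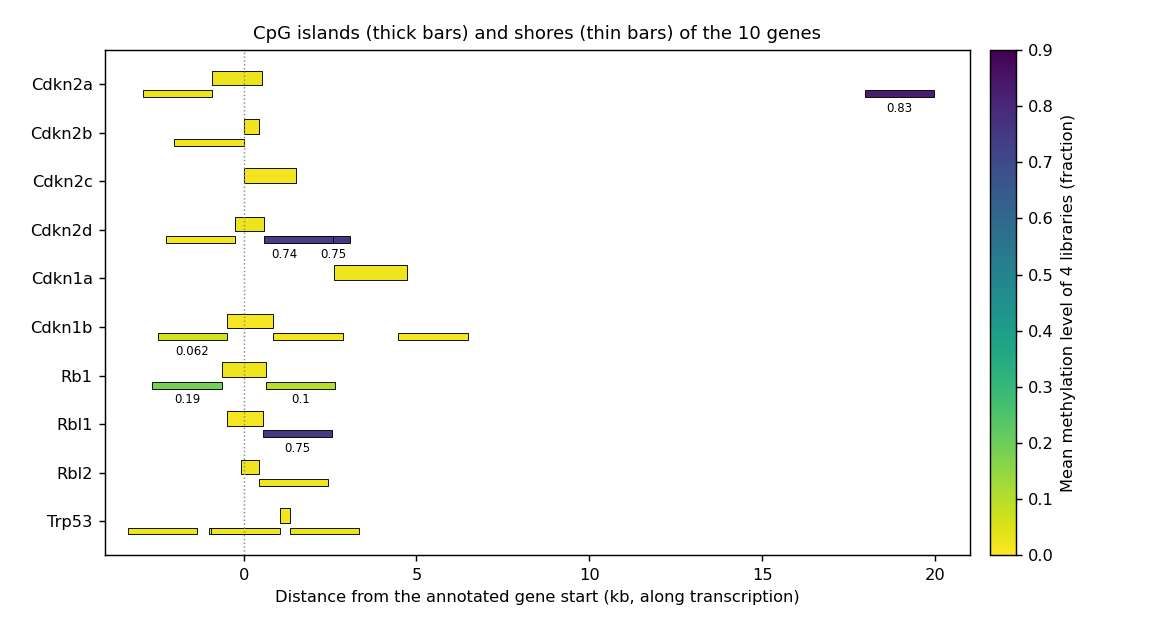
Position of each CpG island (thick bar) and shore (thin bar) of the 10 genes relative to the outermost annotated start (dotted line, horizontal axis in kb along transcription), coloured by the mean methylation level of the 4 libraries, with the level printed for shores of at least 0.05. Every island is under 0.05, while 4 shores downstream of the start, in Cdkn2a, Cdkn2d and Rbl1, are above 0.7.

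The islands of all pocket protein genes were nearly unmethylated, and the shores within Rb1 and Rbl1 were more methylated than their islands, whereas the shore of Rbl2 was not. Rb1 (ENSMUSG00000022105, chr14:73183673-73325822, minus strand) encodes the retinoblastoma protein, the main partner of the activating E2F factors. Its island (chr14:73325170-73326460) was at 0.0211 in control, 0.0247 in siDNMT1, 0.0212 in OB and 0.0209 in siDNMT1_OB, and its exons were between 0.00965 and 0.0145. Levels were higher on both sides of the island, at 0.111, 0.0969, 0.0969 and 0.0964 in the shore within the gene (chr14:73323169-73325168) and at 0.206, 0.181, 0.186 and 0.173 in the shore before it (chr14:73326461-73328461). The promoter, which spans island and shore when taken from the outermost start, was at 0.108, 0.0999, 0.105 and 0.0916 and was the highest of the 9 promoters with 4 levels. Introns of Rb1 were at 0.151, 0.148, 0.156 and 0.13; they contain Lpar6, whose CpG sites are counted there too. In promoter, introns and both shores the DNMT1 siRNA libraries were below their controls, with differences between -0.0267 and -0.000526. Taken from the outermost start, the promoter overlaps the shore before the gene, and the shore within the gene lies in introns. These are therefore not separate observations. In the 5′ UTR, exons and island the siDNMT1 difference changed sign between uninduced and OB cells. Of all entries, 38.4% were lower in both siDNMT1 comparisons.

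Rbl1 (ENSMUSG00000027641, chr2:157145893-157204534, minus strand) encodes p107, a pocket protein whose own gene is a known E2F target. The 250 bases before its start are shown because they were the only member window with the E2F letters TTTCGCGC or TTTGGCGC on either strand, here in capitals. Of 12 start windows of 9 genes, 1 (8.33%) had them, against 215 (0.654%) of 32851 RefSeq windows of 250 bases. The 12 windows held a median of 14 CpG sites, against 6 over all windows, and 75% of them held a CCGG, against 47.1%. A match of letters is a description and not evidence of binding. Rb1 was not among the start windows used here.
Rbl1, chr2:157204535-157204784, minus strand: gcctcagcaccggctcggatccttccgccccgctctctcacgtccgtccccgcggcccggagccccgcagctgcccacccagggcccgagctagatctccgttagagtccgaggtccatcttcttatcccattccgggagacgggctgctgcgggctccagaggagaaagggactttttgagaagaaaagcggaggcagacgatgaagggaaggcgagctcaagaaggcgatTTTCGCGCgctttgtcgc

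The island around those bases (chr2:157203987-157205019) was at 0.0143 in control, 0.013 in siDNMT1, 0.0119 in OB and 0.0122 in siDNMT1_OB, and the promoter of Rbl1 at 0.0155, 0.0128, 0.0121 and 0.0125. Directly downstream, the shore (chr2:157201986-157203985) was at 0.776 in control, 0.739 in siDNMT1, 0.745 in OB and 0.732 in siDNMT1_OB. The control library was the highest of the 4 there, with a siDNMT1 difference of -0.0366 in uninduced cells and -0.0131 in OB cells. Introns of Rbl1 were between 0.304 and 0.331, also highest in control and lowest in siDNMT1_OB. That shore lies in the introns, so the entries are not separate observations. Its exons (0.155, 0.17, 0.172 and 0.156) and its 5′ UTR (0.0513, 0.063, 0.046 and 0.0604) kept no such order.

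Rbl2 (ENSMUSG00000031666, chr8:91070057-91123844, plus strand) encodes p130, the pocket protein of resting cells that works in the DREAM complex. Its promoter was at 0.0565 in control, 0.0297 in siDNMT1, 0.027 in OB and 0.0254 in siDNMT1_OB, so that control stood apart from the other libraries. The island (chr8:91069994-91070507) was at 0.0247, 0.0158, 0.0175 and 0.0153 and the 5′ UTR at 0.0319, 0.0158, 0.019 and 0.0166, with the same library highest. The shore downstream (chr8:91070508-91072508) was as low as the island, at 0.0246 in control, 0.0176 in siDNMT1, 0.0103 in OB and 0.0182 in siDNMT1_OB. All 6 entries of Rbl2 were lower in siDNMT1 than in control, and all 6 were lower in OB than in control. Both counts rest on the same control library, and 54.6% and 63.4% of all entries were lower in these comparisons. The island spans the start and overlaps the 5′ UTR and exons, so the 6 entries are not separate observations. In OB cells 3 of 6 were lower with DNMT1 siRNA, beside 65.7% of all entries. Introns of Rbl2 ran in opposite directions, from 0.257 in control to 0.234 in siDNMT1, a difference of -0.0234, and from 0.249 in OB to 0.308 in siDNMT1_OB, a difference of 0.0586. The exons were at 0.614, 0.6, 0.6 and 0.619. Aktip overlaps Rbl2 on the other strand, and CpG sites in the overlap belong to both.

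Trp53 (ENSMUSG00000059552, chr11:69580359-69591873, plus strand) had low levels in the shores that hold its start, although no listed island holds that start. The island assigned to it (chr11:69581408-69581695) is 288 bp long, lies in an intron, and was at 0.0173 in control, 0.0133 in siDNMT1, 0.0173 in OB and 0.0138 in siDNMT1_OB. The shores that contain the starts, chr11:69579350-69581350 and chr11:69579407-69581406, had identical levels of 0.0202, 0.0192, 0.0191 and 0.0263, and Wrap53 overlaps them on the other strand. The promoter was at 0.0285, 0.028, 0.0226 and 0.0282, the values of a further upstream shore (chr11:69577019-69579018). That shore ends before the start at chr11:69580359, so the promoter level need not describe the bases next to the start. The 5′ UTR was higher, at 0.0978, 0.0937, 0.0844 and 0.0792. Exons of Trp53 were at 0.682 in control, 0.65 in siDNMT1, 0.667 in OB and 0.668 in siDNMT1_OB, a siDNMT1 difference of -0.0317 in uninduced cells and 0.000759 in OB cells. The introns stayed between 0.175 and 0.193.

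Differences of at least 0.1 were counted in the 10 genes beside the same count over all entries. With DNMT1 siRNA in uninduced cells, 0 of 59 entries differed by at least 0.1, where 1.46% of all 106689 entries did (829 lower and 729 higher). In OB cells 1 of 59 did, the Cdkn2b intron, which fell, beside 2.04% of all entries (1445 lower and 727 higher). OB induction with control siRNA gave 1 of 59, the same intron, which rose, beside 2.13% of all entries (1466 lower and 807 higher). Induction with DNMT1 siRNA gave 0 of 59 beside 3.28% (2573 lower and 930 higher). These shares are close to or below the background, so a count of 0 or 1 among 59 is no result about these genes.

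The median differences were close to 0 in the same way. With DNMT1 siRNA the median over the 59 entries was -0.0014 in uninduced cells (38 lower and 21 higher) and 7.71e-05 in OB cells (26 lower and 33 higher), beside -0.00115 and -0.00511 over all entries. With OB induction it was -0.0033 under control siRNA (46 lower and 13 higher) and -0.000773 under DNMT1 siRNA (37 lower and 22 higher), beside -0.00363 and -0.00808. Centring each library on the median of each region class moved the 4 medians, in the order given, to -0.000109, 0.00844, 0.00387 and 0.0135, so that both OB medians changed sign. An entry near 0 can be lower only by its own level: under a mean level of 0.05, which held 38 of the 59 entries (64.4%, against 31.3% of all entries), at most 0.0659% of all entries changed by 0.1 in any comparison.

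Only 9 entries of the 10 genes had a mean level of 0.5 or more: the introns, 3′ UTR and shore of Cdkn2a, the 3′ UTR and shores of Cdkn2d, the shore of Rbl1 and the exons of Rbl2 and Trp53. They held 8 distinct sets of values. Of these, 7 were lower in siDNMT1 than in control, with a median difference of -0.018, and 5 were lower in siDNMT1_OB than in OB, with a median of -0.021. Of all entries at this level, 67.1% and 81.7% were lower in these comparisons, with medians of -0.00748 and -0.02. With OB induction, 6 of the 8 were lower under control siRNA (median -0.0209) and 5 under DNMT1 siRNA (median -0.0161), beside 56.4% and 74.6% of all entries at this level (medians -0.00319 and -0.0161). The medians of the 8 were further below 0 than those of all entries at this level in siDNMT1 against control and in OB against control, which share the control library, and close to them in the others. The 8 sets come from 5 genes, and those of Cdkn2d overlap each other, so the sets are not separate observations. Their differences from the other methylated entries were not tested.

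**Figure D3:**
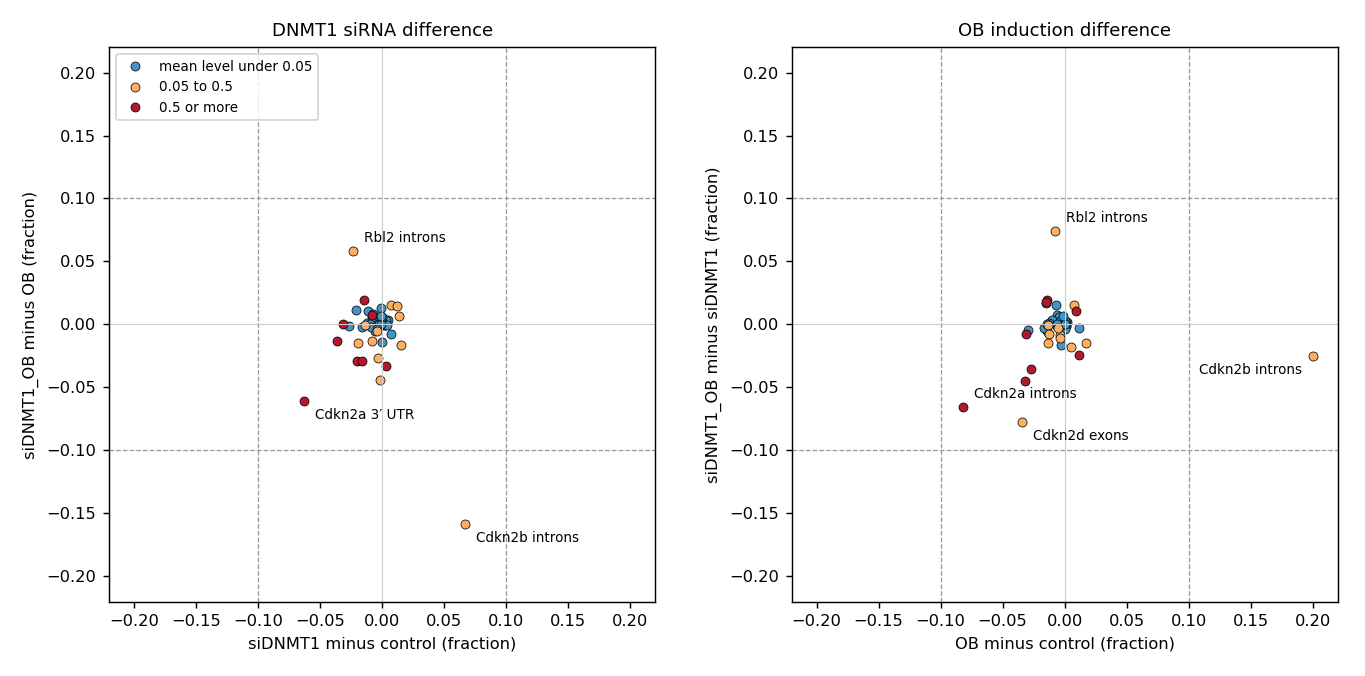
Difference in methylation level (fraction) of each distinct entry of the 10 genes. In the left panel the siDNMT1 difference in OB cells (vertical) is plotted against that in uninduced cells (horizontal), and in the right panel the OB difference under DNMT1 siRNA against that under control siRNA; dashed lines mark 0.1 and colours the mean level. Most points lie near the centre, and the Cdkn2b introns, at 0.0667 and -0.158 on the left and at 0.2 and -0.025 on the right, are the only point past a dashed line.

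The siDNMT1 comparisons in uninduced and in OB cells use different libraries, so their directions can be set side by side. Of the 54 distinct sets of values, 18 (33.3%) were lower with DNMT1 siRNA in both, 11 (20.4%) were higher in both and 25 (46.3%) went opposite ways, beside 38.4%, 17.8% and 43.3% of all entries. For OB induction, 25 (46.3%) were lower under both siRNAs, 5 (9.26%) higher and 24 (44.4%) opposite, beside 50.6%, 13.5% and 35.5%.

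The genes around these brakes in the same pathways were mostly unmethylated at their promoters too. The lists comprised cyclins and their kinases, E2F and DP factors, DREAM partners, regulators, relatives and targets of p53, ubiquitin ligase parts for p27 and cyclin E, and Polycomb repressors of the INK4 locus, together with Cdkn1c. Over 55 genes with 223 gene-region entries, 34 of 52 promoters were under 0.05 in all 4 libraries, against 32.2% of all 20152 promoters. With DNMT1 siRNA, 2 of the 223 entries fell by at least 0.1 in uninduced cells (0.852% of all 76155 gene-region entries did) and 0 in OB cells (1.44%). With OB induction, 2 fell under control siRNA (1.33%) and 1 under DNMT1 siRNA (2.42%). No pathway entry rose by 0.1 in these comparisons, where 0.692%, 0.725%, 0.815% and 0.98% of all gene-region entries did. These counts are at or below the background and are no result about the lists. Median differences of the pathway entries in the same order were -0.00116, -0.0016, -0.0034 and -0.00468.

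Cdkn1c, the imprinted gene of p57 and the remaining Cip/Kip inhibitor, was methylated throughout, unlike Cdkn1a and Cdkn1b. Its promoter was at 0.678 in control, 0.716 in siDNMT1, 0.677 in OB and 0.662 in siDNMT1_OB, and its 5′ UTR was between 0.795 and 0.816. Its exons were at 0.803, 0.817, 0.78 and 0.764, its introns between 0.622 and 0.68 and its 3′ UTR between 0.864 and 0.881. None of its 5 entries differed by 0.1 in a comparison.

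The 5 pathway entries that fell by 0.1 were in 5 different genes. The 3′ UTR of Ccnd1, which encodes cyclin D1, was at 0.574 in control, 0.457 in siDNMT1, 0.478 in OB and 0.457 in siDNMT1_OB. Introns of Lin37, a subunit of the MuvB core, were at 0.706, 0.595, 0.675 and 0.61, so that both DNMT1 siRNA libraries were below both control siRNA libraries, with differences of -0.111 before and -0.0654 after induction. The p53 target Pmaip1 encodes the BH3-only protein NOXA, and its promoter was at 0.438, 0.405, 0.3 and 0.348, lower in both induced libraries.

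The other two were a 3′ UTR and a promoter. The 3′ UTR of Zmat3, a p53 target that encodes an RNA-binding zinc finger protein, was at 0.767 in control, 0.688 in siDNMT1, 0.65 in OB and 0.697 in siDNMT1_OB, with control above the rest. The promoter of Ccnd2, which encodes cyclin D2, was at 0.354, 0.395, 0.308 and 0.279, a difference of -0.116 between siDNMT1_OB and siDNMT1. Each of the 5 rests on single libraries, as do the values of the 10 genes.

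**Figure D4:**
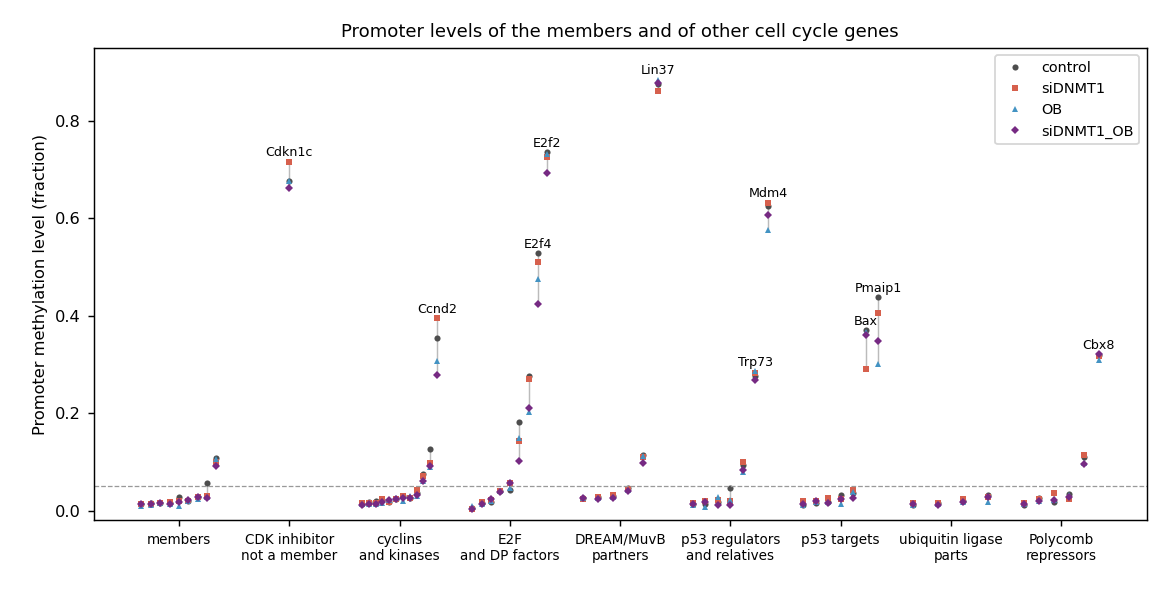
Promoter methylation level (fraction, vertical axis) of the 9 genes with 4 levels and of the pathway genes by list (horizontal axis), with 1 point per library joined by a line for each gene and a dashed line at 0.05; genes with a mean of at least 0.25 are named. The promoters of the 9 genes sit between 0.0102 and 0.108, while Cdkn1c lies between 0.662 and 0.716.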

How the data were processed

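RRBS libraries, 1 for each of 4 conditions, were grouped by the treatment in the labels. The authors used Trimmomatic (version 0.36) and Bismark (version 0.16.3) on mm10 and deposited the methylated fraction of CpG cytosines per region; promoters were the 2 kb before a start. The coverage minimum, site weighting and start chosen for a gene are not given in the sources used here, and the protocol text describes sonicated DNA.

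Members were matched by Ensembl identifier to GENCODE vM21 on GRCm38, and islands and shores by overlap, counted from 1. Differences used entries with a level in all 4 libraries, and 0.1 counted as a change. With 1 library per condition and no read counts, no p-value was computed. Named genes were the 10 members, pathway genes with an entry changed by 0.1, Cdkn1c, and the 3 genes most like the member that varied most. Members and lists were chosen with earlier results of these data known. Alternatives were thresholds of 0.05 and 0.2, centring on class medians, entries in both libraries of a comparison, gene regions alone, and regions up to 2 kb upstream. Functions were tested on simulated data. Python 3.11.15, pandas 2.3.3, numpy 2.4.6, pysam 0.24.0 and matplotlib 3.10.9 were used.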

Additional observations from a re-analysis of the deposited data

Results flagged for a closer look

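The intron of Cdkn2b stood out because its difference turned direction between the groups compared. DNMT1 siRNA went with a higher level in uninduced cells and a lower level in OB cells, and the difference between these differences was -0.225. The same 4 values, read the other way, give the OB difference as higher under control siRNA and lower under DNMT1 siRNA, again -0.225 apart. The difference was not tested, since each condition is 1 library without read counts.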

How the results depend on the processing

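Alternatives were compared for the count of changed entries and the median difference of the 10 genes in each of the 4 comparisons. With 0.05 in place of 0.1, the counts in siDNMT1 against control, siDNMT1_OB against OB, OB against control and siDNMT1_OB against siDNMT1 were 2, 3, 2 and 3 of 59, in place of 0, 1, 1 and 0. With 0.2, the count in siDNMT1_OB against OB was 0. Centring each library on the median of each region class turned the median difference to 0.00387 in OB against control and to 0.0135 in siDNMT1_OB against siDNMT1, since centring subtracts each library's own class median. The siDNMT1 medians became -0.000109 in uninduced and 0.00844 in OB cells, with the same sign as before. The other 33 values kept their direction and stayed within 1.5 times the count or 0.01 of the median. No library could be left out, since each condition has 1. All 10 genes were listed, so the alternatives planned for an unlisted gene were not run. No paired analysis was possible because no test was made. Unknown depth limits the reading of entries with few CpG sites.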

Other observations

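Some further pathway promoters had intermediate or high levels, and the genes below were named after their values were seen. The promoter of Lin37 was at 0.875 in control, 0.86 in siDNMT1, 0.885 in OB and 0.877 in siDNMT1_OB. The promoter of E2f2, which encodes an activating E2F, was at 0.735, 0.727, 0.732 and 0.692, and that of Mdm4, a p53 inhibitor, at 0.626, 0.632, 0.576 and 0.606. The promoter of E2f1 was lower with DNMT1 siRNA in both settings, at 0.181 in control and 0.144 in siDNMT1 and at 0.149 in OB and 0.102 in siDNMT1_OB, and that of E2f4, a partner of p107 and p130, at 0.529, 0.51, 0.476 and 0.423, was lower with each treatment. None of these promoters differed by 0.1 in any of the 4 comparisons.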
